A study of Mus musculus with 12 samples.

Results

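Oxidative phosphorylation complex genes encode the nuclear subunits of the mitochondrial respiratory chain and ATP synthase, together with a group of factors that assemble complex I. They were chosen by symbol in the platform annotation: symbols that start with Nduf, Uqcr, Atp5, Cox4, Cox5, Cox6, Cox7 or Cox8, and Sdha, Sdhb, Sdhc, Sdhd and Cyc1. This gave 88 genes of the 19057 named on the array, with 136 of its 45281 probes. Of the 88 genes, 82 had at least 1 probe that was detected on at least 6 of the 12 arrays, and 113 of the 136 probes passed that filter.

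Complex I (NADH dehydrogenase) and complex II (succinate dehydrogenase) feed electrons into the chain, complex III passes them to cytochrome c, and complex IV (cytochrome c oxidase) hands them to oxygen. Complexes I, III and IV pump protons across the inner membrane, and complex V, the ATP synthase, uses the returning protons to make ATP. Neurons depend on this pathway to fuel ion pumping and synaptic transmission. Some subunits of complex IV come in isoforms that differ between brain, heart and muscle, lung or testis.

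The mice were C57BL/6J males aged 3 weeks, and hippocampal RNA was hybridised to Illumina bead arrays, 1 array per sample. In the ethanol group (6 arrays) the mice had been exposed before birth, when dams drank 10% (v/v) ethanol voluntarily between 0.5 days and 8.5 days post-coitum. The control group also had 6 arrays. Each of 2 beadchips carried 3 arrays of either group: replicates 1 to 3 of both groups were on beadchip 1 and replicates 4 to 6 on beadchip 2. The note on maternal drinking is attached to the control samples too, so the groups rest on the treatment label, and what control dams drank is not stated. Whether the mice of a group were littermates is not stated, and p-values therefore reflect only how far these arrays spread, some of which may be technical.

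The promoters of 3 members show sequence features that some of these genes have and others lack. Each is a RefSeq window on GRCm38.p6 that runs from 250 bases before to 50 bases after a transcript start, printed 5′ to 3′ on the gene's strand, with motif letters in capitals. Cox6a1, whose product is the widely expressed form of a small complex IV subunit, is shown because it holds both motifs that were more frequent in these genes than in all (chr5:115348909-115349208, minus strand). Cox8b, the heart and muscle form of another complex IV subunit, is shown because it varied most between arrays (chr7:140900397-140900696, minus strand). Ndufb10, an accessory complex I subunit, is shown because it differed between beadchips (chr17:24724374-24724673, minus strand).
Cox6a1: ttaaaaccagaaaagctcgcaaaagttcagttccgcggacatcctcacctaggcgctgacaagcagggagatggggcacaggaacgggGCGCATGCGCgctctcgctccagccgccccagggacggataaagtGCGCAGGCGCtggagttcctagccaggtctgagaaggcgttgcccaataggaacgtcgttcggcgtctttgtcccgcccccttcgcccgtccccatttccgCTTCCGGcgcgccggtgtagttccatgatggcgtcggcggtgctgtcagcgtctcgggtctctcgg
Cox8b: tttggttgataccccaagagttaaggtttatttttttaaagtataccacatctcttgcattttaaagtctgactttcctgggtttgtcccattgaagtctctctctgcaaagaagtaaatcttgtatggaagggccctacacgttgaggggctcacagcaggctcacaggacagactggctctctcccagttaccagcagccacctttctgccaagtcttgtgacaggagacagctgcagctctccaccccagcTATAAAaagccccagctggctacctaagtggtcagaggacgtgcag
Ndufb10: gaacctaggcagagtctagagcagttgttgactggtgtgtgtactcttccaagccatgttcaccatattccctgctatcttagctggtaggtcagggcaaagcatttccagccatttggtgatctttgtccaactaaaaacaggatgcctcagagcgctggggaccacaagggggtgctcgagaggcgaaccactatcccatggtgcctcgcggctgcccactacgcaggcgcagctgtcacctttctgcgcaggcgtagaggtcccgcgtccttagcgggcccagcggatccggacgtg
The capitals mark GCGCA, any base, then GCGC, the letters bound by nuclear respiratory factor NRF1, CCGGAAG, the core bound by ETS factors such as GABP, and TATAAA, each searched on both strands. The Cox6a1 window held 2 NRF1 matches and 1 ETS match, which reads as the reverse complement. The Cox8b window held 1 TATA match and neither of the others, and the Ndufb10 window held none of the 3. Windows were found for 72 of the 88 genes, 77 windows in all. NRF1 letters lay in 19 of the 77 windows (24.7%), against 4.6% of all 32851 windows of this length. ETS letters lay in 18 (23.4%), against 8.86% of all windows, and TATA letters in 9 (11.7%), against 13.6%. At least 1 of the NRF1 and ETS matches was present in 33 windows (42.9%), against 12.6% of all. These are matches of letters only, and the windows compared were not matched for base composition or CpG content.

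Scanner intensity medians ran from 132.6 to 152.1 over the arrays, and 20804 to 21672 probes per array were detected. After normalization, correlations between arrays were 0.981 to 0.993. The arrays differed most in choroid plexus RNA: ethanol replicates 1 and 3 and control replicates 1 and 4 were low in Ttr, the thyroid hormone carrier of choroid plexus epithelium. Neuron markers averaged 12.96 to 13.18 log2 signal on ethanol arrays and 12.94 to 13.16 on control arrays. Prox1, a marker of dentate granule neurons, was detected on all 12 arrays, at 9.68 to 10.40 on ethanol arrays and 9.71 to 10.09 on control arrays. In whole tissue, fewer cells of a type and less RNA per cell cannot be told apart.

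The genes were measured across nearly the whole signal range. Atp5b, the catalytic beta subunit of ATP synthase, had the brightest member probe, at 47691.9 to 57964.8 scanner units, where the array maxima lay between 61021.4 and 66558.7. Atp5g3, 1 of the genes for the membrane ring subunit c, followed at 35493.2 to 51947.3. Whether signals this near the array maxima limited the differences seen for either gene was not tested. At the other end, 6 genes were detected on 0 arrays: Ndufs1, an iron-sulphur core subunit of complex I, Ndufaf6, an assembly factor, Sdha, the flavoprotein of complex II, Cox4i2, the lung form of subunit IV, and the testis forms Cox7b2 and Cox8c. Each had 1 probe, with log2 signals of at most 5.45. For Ndufs1 and Sdha, which respiring cells use, this speaks only of the probe. Subunit genes that the annotation used here gave no probe, such as Cox7c and Cox8a, and the subunits encoded by mitochondrial DNA were not analysed here.

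Ethanol mice and controls were compared to ask which transcripts still differed weeks after an exposure in early gestation, here for the respiratory chain. No member differed past the threshold. Of the 82 genes, 0 had an adjusted p under 0.05 (limma with Benjamini-Hochberg adjustment over 21263 probes), where 0 of all probes passed (0%) and the smallest adjusted value was 0.731. With p unadjusted, 0 of the 82 genes were under 0.05 on their brightest probe, against 512 of all 11401 genes (4.49%) and 4.81% of all probes. The ethanol and control arrays separated without overlap for 0 of the 82 genes, against 0.219% of all genes. On the log2 scale the median difference, ethanol minus control, was -0.02 over the members, and 0.00 over all genes.

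The direction of these small differences depended on how the arrays were scaled and on which arrays were used. With quantile normalization 49 of the 82 genes were lower in ethanol mice and 33 higher, where 48.1% of all genes were lower. With arrays scaled to a common median instead, 24 of the 82 were lower, and the share of all genes that were lower moved to 29.5%, with the median of all probes at 0.05 and that of the members at 0.03. Without control replicate 1 the count was 63 of 82 lower, and without the 4 arrays low in Ttr it was 59 of 82, with 49.1% and 50.2% of all genes lower. No member passed the threshold under any of these settings.

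The differences were small as well as uncalled. The 95% interval of the difference lay within 1.5-fold in either direction for 77 of the 82 genes (93.9%), against 93.3% of all genes, and for all 33 complex I subunits tested. The 5 genes with wider intervals were Ndufaf3, Uqcrfs1, Cox6b2, Cox8b and Atp5k.

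**Figure D1:**
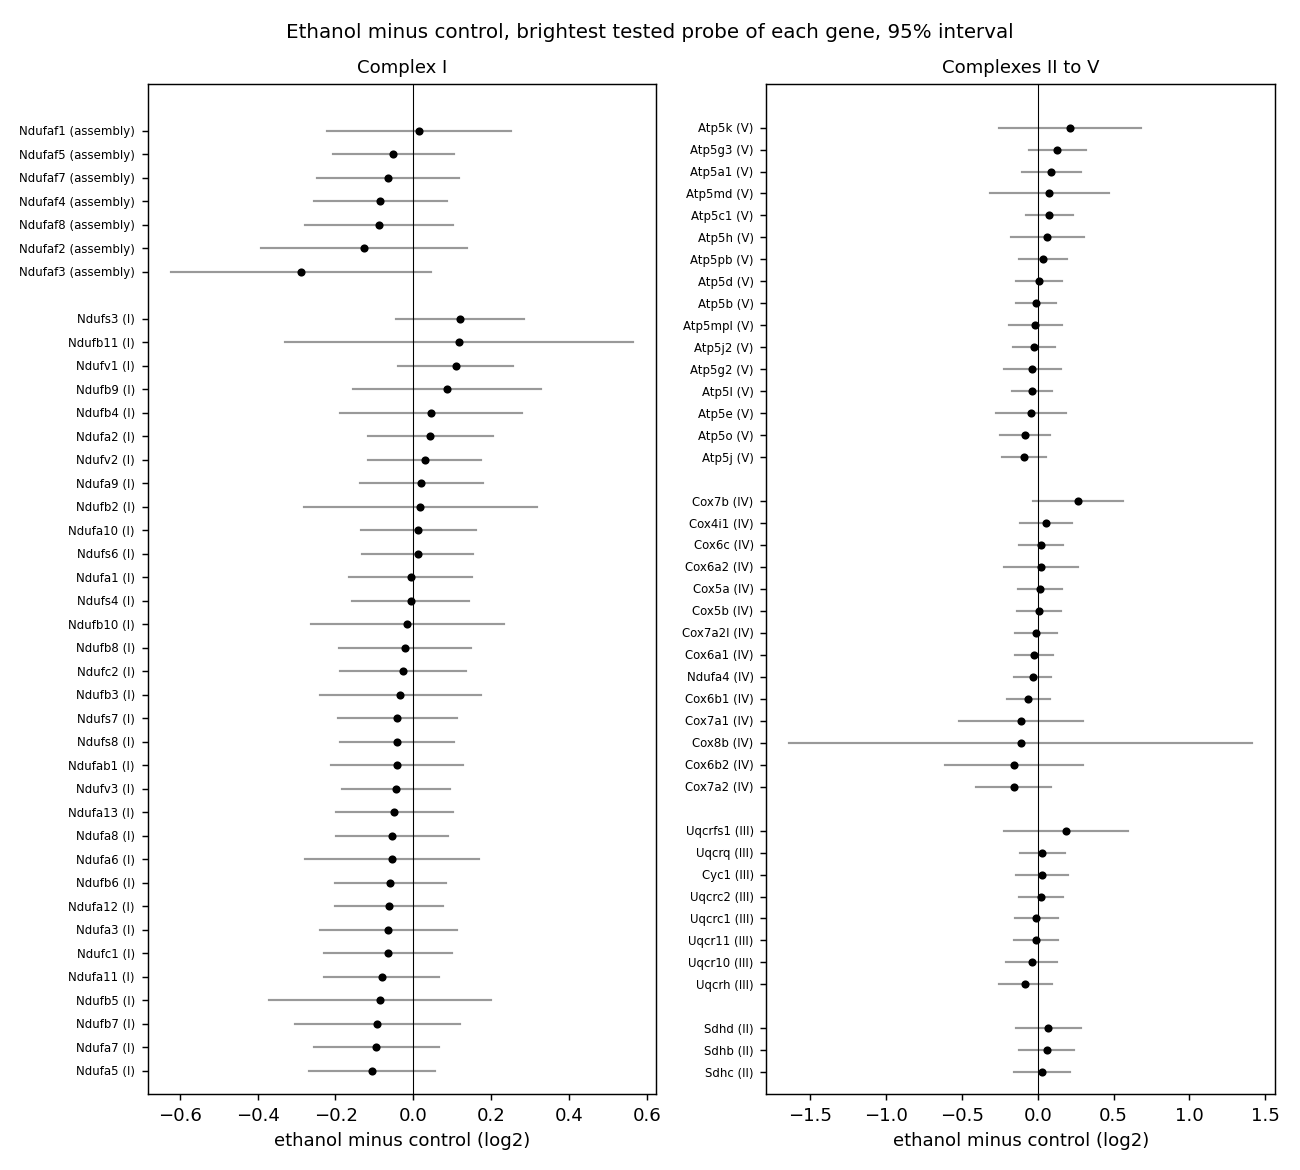
Ethanol minus control (log2) for the tested genes of each complex and the complex I assembly factors, brightest tested probe of each gene. Points are limma estimates over 6 ethanol and 6 control arrays and bars are 95% intervals, every one of which spans 0; Cox8b in complex IV has the widest.

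In complex I, the electron entry point, 34 subunit genes had a probe and 33 were tested. The mean log2 signal over these 33 genes had a lowest value of 12.12, a median of 12.18 and a highest of 12.23 on ethanol arrays, against 12.03, 12.19 and 12.32 on control arrays. The ethanol arrays lay inside the range of the controls. In ethanol mice 22 genes were lower and 11 higher, with a median difference of -0.03. With median scaling it was 0.02, with 9 of the 33 lower, where 29.5% of all genes were lower and the median of all probes was 0.05. The complex I median, over the brightest probe of each gene, was below the median of all tested probes under both scalings. The share of complex I genes that were lower did not exceed that of all genes with median scaling. A median over the brightest probes of all genes was not taken with median scaling, so medians there are set beside all probes only. The 5 core subunits tested, which belong to the catalytic heart of the complex, had a median difference of 0.03, and the 28 accessory subunits one of -0.04, which was 0.02 with median scaling, against 0.05 for all probes.

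Ndufs3, a core subunit of the peripheral arm, had log2 signals from 12.26 through a median of 12.41 to 12.49 in ethanol mice, against 12.07, 12.26 and 12.45 in controls. Ndufv1, the flavoprotein that accepts electrons from NADH, ran from 13.61 through 13.67 to 13.89 in ethanol mice and from 13.52 through 13.59 to 13.70 in controls. Both leaned higher in ethanol mice, with overlapping groups. The differences were 0.12 (95% interval -0.05 to 0.28) for Ndufs3 and 0.11 (-0.04 to 0.26) for Ndufv1, each with an adjusted p of 1.00 in limma. Among accessory subunits Ndufa5 differed by -0.11 (-0.27 to 0.05), Ndufa7 by -0.09 (-0.26 to 0.07), Ndufa11 by -0.08 (-0.23 to 0.07) and Ndufa12 by -0.06 (-0.20 to 0.08). Ndufa5, a subunit of the peripheral arm, had signals of 12.74 to 12.90 in ethanol mice and of 12.71 to 13.04 in controls, so the ethanol values sat within the control range.

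The complex I assembly factors, 8 named and 7 tested, had the most negative median among the groups of members, -0.08 in ethanol mice against controls, with 6 of 7 lower. The count was 5 of 7 with median scaling, where the median was -0.02, against 0.05 for all probes. Ndufaf3, which takes part in early assembly, had the largest negative difference of all 82 members. Its signal ran from 7.39 through a median of 7.81 to 8.21 in ethanol mice, against 7.61, 8.17 and 8.45 in controls. The groups overlapped: ethanol replicate 5 was above control replicates 1, 2, 4 and 6. The difference was -0.29 (-0.62 to 0.04), with an unadjusted limma p of 0.0841 and an adjusted p of 1.00. It was -0.32 on beadchip 1 and -0.26 on beadchip 2. Ndufaf2 differed by -0.13 (-0.39 to 0.14) and Ndufaf1 by 0.01 (-0.22 to 0.25). A second, dimmer probe of Ndufaf4, named after its values were seen, differed by -0.25 with an unadjusted p of 0.0403 (adjusted p of 1.00 in limma), while its brighter probe differed by -0.08. It was the 1 of 113 member probes under 0.05 unadjusted, against 4.81% of all probes.

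Complex II, which is also an enzyme of the citrate cycle, was represented by Sdhb, the iron-sulphur subunit, and the membrane anchors Sdhc and Sdhd. All 3 were slightly higher in ethanol mice, by 0.06 (-0.12 to 0.24), 0.03 (-0.15 to 0.21) and 0.07 (-0.15 to 0.28). Sdhb ran from 11.46 through a median of 11.65 to 11.71 in ethanol mice and from 11.24 through 11.62 to 11.70 in controls. Its dimmest probe differed by 0.26 (-0.11 to 0.62). On the brightest, the lowest value was control replicate 1, and the other 5 controls lay between 11.60 and 11.70. Without control replicate 1 the median of the 3 genes was 0.01, with 1 of the 3 lower, and without the 4 arrays low in Ttr it was -0.02, with 2 lower. Within beadchip 1, which holds that array, the median was 0.17, and within beadchip 2 it was -0.04.

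In complex III, all 8 genes with a probe were tested, and 4 were lower and 4 higher in ethanol mice, with a median of 0.01. Uqcrh, the hinge protein, had signals of 13.75 to 14.06 in ethanol mice and 13.72 to 14.12 in controls, a difference of -0.08 (-0.26 to 0.09). The core proteins Uqcrc1 and Uqcrc2 differed by -0.01 (-0.15 to 0.13) and 0.02 (-0.12 to 0.17), and Cyc1, the cytochrome that reduces cytochrome c, by 0.03 (-0.14 to 0.20). Among the small subunits Uqcr10 differed by -0.04 (-0.21 to 0.13) and Uqcrq by 0.03 (-0.12 to 0.18). Uqcrfs1, the Rieske iron-sulphur protein, was represented by a dim probe detected on 6 of 12 arrays, with signals of 5.23 to 5.74 in ethanol mice and 4.83 to 6.15 in controls. Its difference of 0.19 (-0.22 to 0.60) says little at this signal.

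Complex IV had 17 genes with a probe and 14 tested, counting Ndufa4, which was named for complex I and is now placed in cytochrome c oxidase. In ethanol mice 8 were lower and 6 higher, with a median of -0.02, which was 0.02 with median scaling, against 0.05 for all probes. Cox7b, a small structural subunit, had the largest positive difference of all 82 members. It ran from 7.57 through a median of 7.72 to 8.19 in ethanol mice, against 7.14, 7.51 and 7.94 in controls. The groups overlapped, with control replicate 3 above 5 of the ethanol arrays. The difference was 0.27 (-0.03 to 0.56), with an unadjusted limma p of 0.0751 and an adjusted p of 1.00. It was 0.07 on beadchip 1 and 0.46 on beadchip 2.

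The other complex IV genes fell on both sides of 0. Cox7a2, the widely expressed form of subunit VIIa, ran from 9.00 through 9.57 to 9.67 in ethanol mice and from 9.40 through 9.65 to 9.85 in controls, a difference of -0.16 (-0.41 to 0.09). Its lowest value was ethanol replicate 1. The subunit genes with bright probes differed little. Cox4i1, the brain-expressed form of subunit IV, differed by 0.06 (-0.11 to 0.22), Cox5a by 0.01 (-0.13 to 0.16), Cox5b by 0.01 (-0.14 to 0.15), Cox6a1 by -0.02 (-0.15 to 0.10), Cox6b1 by -0.06 (-0.21 to 0.08) and Ndufa4 by -0.03 (-0.16 to 0.09). Cox7a2l, a relative of subunit VIIa, differed by -0.01 (-0.15 to 0.12). The heart and muscle forms Cox6a2 and Cox7a1 differed by 0.02 (-0.22 to 0.27) and -0.11 (-0.52 to 0.30), and the testis form Cox6b2 by -0.16 (-0.61 to 0.30).

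In complex V, all 16 genes with a probe were tested, and 8 were lower and 8 higher in ethanol mice, with a median of 0.00. Atp5b differed by -0.01 (-0.14 to 0.12), Atp5a1, the alpha subunit, by 0.09 (-0.10 to 0.29) and Atp5c1, the gamma subunit of the rotor, by 0.08 (-0.08 to 0.23). Atp5g3 ran from 15.32 through a median of 15.43 to 15.58 in ethanol mice, against 15.08, 15.31 and 15.53 in controls, with overlapping groups and a difference of 0.13 (-0.06 to 0.32). Atp5g2, another subunit c gene, differed by -0.03 (-0.22 to 0.15), and the stalk subunits Atp5j and Atp5o by -0.09 (-0.24 to 0.06) and -0.08 (-0.25 to 0.08). Atp5k, the small membrane subunit e, had signals of 6.64 to 8.18 in ethanol mice and 6.58 to 7.32 in controls. Its difference of 0.21 (-0.25 to 0.68) included ethanol replicate 1 at 8.18, with the other ethanol arrays at 7.07 or below.

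The difference between ethanol mice and controls was also compared between the beadchips. In a limma fit with an interaction of group and beadchip, 0 of 21263 probes had an adjusted p under 0.05 (0%), and 892 (4.20%) had an unadjusted p under 0.05. Of the 82 members, 0 passed at an unadjusted p under 0.05, against 3.70% of all genes.

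Other genes of mitochondrial energy metabolism, taken from lists, showed no call either, with 0 of 29 other assembly factors, 0 of 14 electron carrier and exchange genes, 0 of 15 citrate cycle enzymes and 0 of 17 biogenesis regulators at an adjusted p under 0.05. The assembly factors had a median difference of 0.04, the carriers 0.03, the citrate cycle enzymes 0.03 and the regulators 0.00. Of these lists, Sco1 and Cox15 had an unadjusted limma p under 0.05: Sco1, a copper chaperone of complex IV, differed by 0.21 (0.05 to 0.37) and Cox15, an enzyme of heme A synthesis, by 0.14 (0.01 to 0.28), each with an adjusted p of 1.00. Citrate cycle genes were higher in ethanol mice for 11 of 15 and lower for 4, where 48.1% of all genes were lower. With median scaling 15 of 15 were higher, but only 29.5% of all genes were lower there. Without control replicate 1, 8 of 15 were higher, where 49.1% of all genes were lower. Suclg2, a subunit of succinyl-CoA ligase, had the smallest p of these, with a difference of 0.18 (-0.01 to 0.38). Cycs, which encodes cytochrome c, differed by -0.10 (-0.31 to 0.10), and Tfb2m, a mitochondrial transcription factor, by 0.13 (-0.04 to 0.30).

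Among marker lists of cell types, the widest median difference was in red cells: all 5 markers tested were lower in ethanol mice, with a median of -0.51. All 5 had an unadjusted limma p under 0.05, against 234 of all 11401 genes lower at that p, and 0 passed the threshold adjusted over all probes. The mean of these 5 genes ran from 9.80 to 10.82 on ethanol arrays and from 10.21 to 11.22 on control arrays. The choroid plexus and ependyma markers averaged 8.83 ± 1.80 in ethanol mice and 8.81 ± 1.86 in controls (SD, n = 6 each). All 7 microglia markers tested were lower, with a median of -0.10 (5 of 7 with median scaling), and 8 of 9 neuron markers were higher, with a median of 0.06. The part of these cells in the values of the respiratory chain genes was not tested.

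The members also varied between single arrays in ways that did not follow the groups. On control replicate 1, 9 of the 82 members were above their own mean over the 12 arrays (11.0%), against 47.7% of all genes on that array. It was the lowest of the 12 arrays for 31 of the 82 members (37.8%), against 12.1% of all genes, and the highest for 0. The deviation appeared in every complex. The median deviation on that array was -0.13 in complex I, -0.30 in complex II, -0.16 in complex III, -0.17 in complex IV and -0.16 in complex V, against -0.01 over all genes. In complex IV the mean deviation was -0.29 both there and on ethanol replicate 1, where the median was -0.03, and Cox8b was low on both arrays. The same 9 of 82 were counted above their own mean there in the authors' processed values, without background correction and with an offset of 50. These settings gave values close to the main ones. With median scaling, 7 of 82 were, against 45.3% of all genes.

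Other lists deviated to different degrees on control replicate 1. By mean deviation, citrate cycle enzymes were at -0.12 (median -0.09) and electron carrier and exchange genes at -0.17 (median -0.20). The other assembly factors were at -0.10 (median -0.13), with 5 of 29 above their own mean. Biogenesis regulators were at 0.00 (median -0.03). Neuron markers deviated by a mean of 0.11 (median 0.13), oligodendrocyte markers by 0.30 (median 0.31) and astrocyte markers by 0.11 (median 0.04). Choroid plexus and ependyma markers deviated by a mean of -2.04 (median -2.63). The part of these in the low values was not tested. The 4 arrays low in Ttr were also the 4 with the lowest mean over the 82 members: 11.70 on ethanol replicate 1, 11.73 on ethanol replicate 3, 11.59 on control replicate 1 and 11.76 on control replicate 4, against 11.77 to 11.89 on the other 8. In that order their mean deviations were -0.09, -0.06, -0.20 and -0.02, with 31, 31, 9 and 36 of the 82 members above their own mean. Their choroid plexus and ependyma markers deviated by a mean of -1.99, -2.60, -2.04 and -2.75. The member mean includes Cox8b, and by median deviation control replicate 4 (-0.01) was above ethanol replicate 2 (-0.02).

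The other end of the range was control replicate 5, where 65 of the 82 members were above their own mean, against 48.3% of all genes, and all 33 complex I genes tested were. With median scaling the count was 51 of 82, against 34.2% of all genes. Among the ethanol arrays, replicate 1 was the lowest of the 12 for 19 members (23.2%), against 14.7% of all genes, and its mean deviation was -0.09. On replicates 4 to 6 of the ethanol group it was 0.03 to 0.05. Both the lowest and the highest array by member mean were controls, so the ethanol arrays, at 11.70 to 11.84, lay inside the control range of 11.59 to 11.89.

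**Figure D2:**
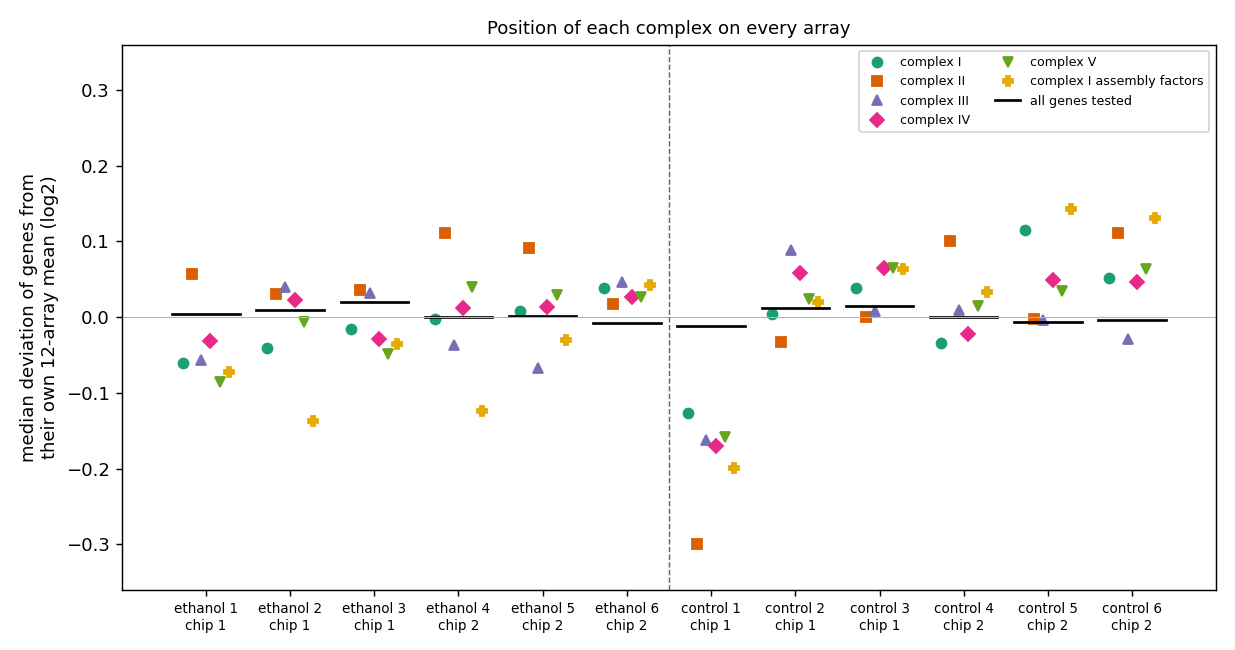
Median deviation (log2) of the genes of each complex from their own 12-array mean, for every array, ethanol on the left and control on the right, with beadchip below each label. Black bars give all 11401 genes tested; on control replicate 1 each of the 6 groups of members lies below -0.1 while all genes lie near 0.

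Cox8b, the heart and muscle form of subunit VIII, stood apart among the members. Its SD over the 12 arrays was 1.38, against a median of 0.12 for the 82 genes and 0.42 for Atp5k, the next. It was detected on 9 of 12 arrays. Its log2 signals on ethanol replicates 1 to 6 were 4.69, 7.96, 5.09, 7.80, 8.40 and 7.78, and on control replicates 1 to 6 they were 5.33, 8.06, 7.94, 5.63, 7.83 and 7.60. The 4 low arrays, ethanol 1 and 3 and control 1 and 4, were those low in Ttr, with nothing between 5.63 and 7.60. Low arrays were spread evenly over the groups, but not over the beadchips, where only control 4 lies on beadchip 2. Ethanol minus control was -0.11 (-1.64 to 1.41).

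Choroid plexus genes divided the arrays in the same way. Ttr was at 8.33 to 11.00 on these 4 arrays and at 15.56 to 15.81 on the other 8. Aqp1, a water channel of choroid plexus epithelium, was at 5.21 to 5.77 on the 4 arrays and at 10.31 to 10.93 on the other 8. In all, 8 of the 10 choroid plexus and ependyma markers tested were lower on the 4 arrays without overlap, counting Ttr, by which the 4 arrays were picked, and the mean of the 10 was 6.07 to 6.83 there and 9.79 to 10.15 on the other 8. The cell type that carries Cox8b RNA was not tested.

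A further 5 members were lower on the same 4 arrays without overlap, by smaller margins, which made 6 of 82 members lower, against 2.82% of all genes, and 0 higher, against 1.01%. Cox6b2, the testis form of subunit VIb, was at 6.00 to 6.24 on the 4 arrays and 6.52 to 7.19 on the other 8. Atp5g2 was at 10.53 to 10.67 on the 4 and 10.68 to 10.97 on the other 8. Ndufa1, a small membrane subunit of complex I, was at 13.19 to 13.30 on the 4 and 13.36 to 13.52 on the other 8. Ndufb4, another membrane subunit of complex I, was at 7.56 to 7.80 on the 4 and 7.80 to 8.32 on the other 8, and Uqcrc2 at 13.44 to 13.58 on the 4 and 13.58 to 13.75 on the other 8, so these ranges nearly touched. Ndufa1 and Ndufb4 were named after their values were seen. The remaining members, Cox6a1 and Cox7a2l among them, overlapped. The mean over all members was also lower on each of these 4 arrays than on any of the other 8. That mean includes Cox8b. By median deviation over the members, control replicate 4 (-0.01) was above ethanol replicate 2 (-0.02), which is not among the 4.

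**Figure D3:**
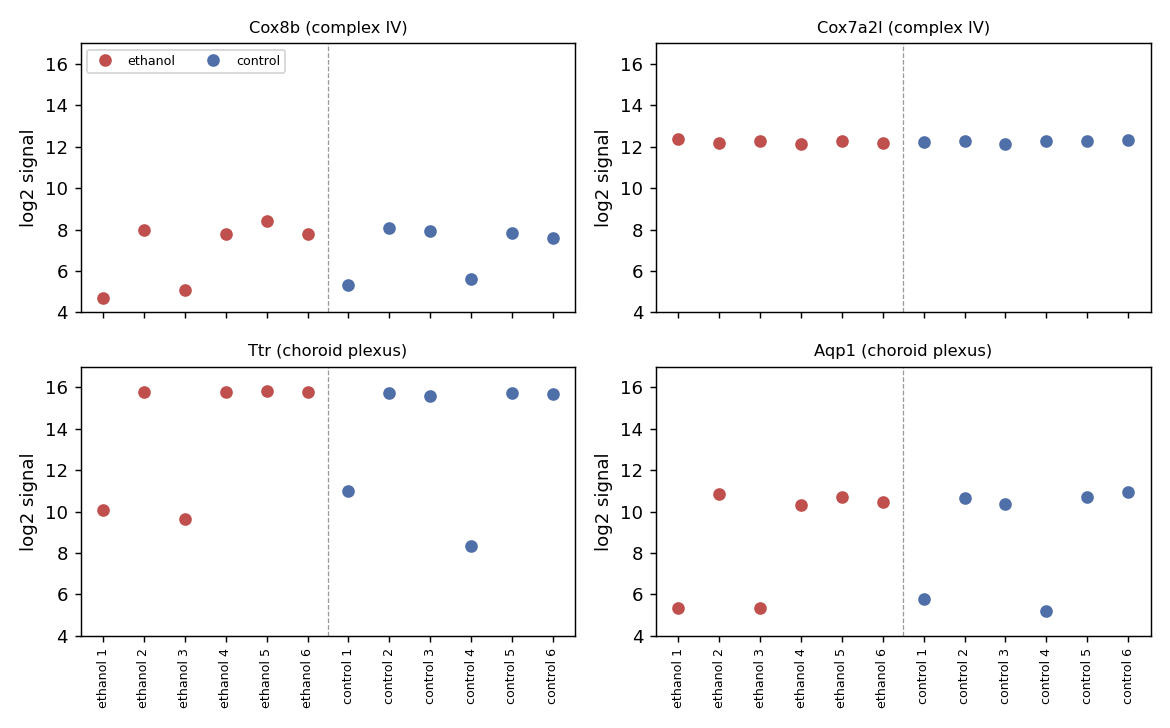
Log2 signal on every array, ethanol replicates on the left and control replicates on the right, for Cox8b, Cox7a2l, Ttr and Aqp1. Cox8b falls to 4.69 to 5.63 on the 4 arrays where Ttr and Aqp1 are low, while Cox7a2l stays between 12.14 and 12.36 on all 12.

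Beadchip 2 and beadchip 1 were compared with group as a term, since each carried 3 arrays of either group. Over all probes 6 of 21263 passed an adjusted p of 0.05 (0.0282%), and 1 of the 6 was a member probe, the dimmer of a pair for Ndufb10. On beadchip 2 this probe read 10.01, 9.75 and 9.74 in ethanol mice and 9.91, 10.12 and 10.03 in controls. On beadchip 1 it read 9.38, 9.22 and 9.40 in ethanol mice and 9.40, 9.36 and 9.51 in controls. All 6 arrays of beadchip 2 were above all 6 of beadchip 1. The difference, beadchip 2 minus beadchip 1, was 0.55 (0.39 to 0.71, adjusted p of 0.0443 in limma). The brighter Ndufb10 probe, at 11.21 to 11.54 on beadchip 2 and 10.89 to 11.25 on beadchip 1, differed by 0.31 (0.14 to 0.49) with an adjusted p of 0.191.

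The call for Ndufb10 lay close to the threshold. It was lost whichever of the 12 arrays was left out, with adjusted p of 0.0623 to 0.168, and with median scaling (0.123) or without the detection filter (0.0525). The difference itself stayed at 0.51 to 0.57 with 1 array left out, 0.49 with median scaling and 0.55 without the filter. The call was kept in the authors' processed values (adjusted p of 0.00341 in limma) and without background correction (0.00343), where Ndufa6 was called too. Those settings gave nearly the same values, with a difference of 0.48 in each, so they do not count separately. The call was also kept with an offset of 50 (0.0203), detection on all 12 arrays (0.0323) or array weights (0.0336). Ndufb10 differed between ethanol mice and controls by -0.02 (-0.26 to 0.23) on the brighter probe and by -0.14 on the dimmer.

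More members leaned towards beadchip 2 than genes in general. At an unadjusted p under 0.05, 13 of the 82 were higher on beadchip 2, against 4.97% of all genes and 6.22% of all probes, and 1 was lower, against 4.60%. The 13 were 6 subunits and 3 assembly factors of complex I, 1 of complex II and 3 of complex V, with 0 of complexes III and IV. With median scaling the counts were 9 higher and 2 lower, against 2.89% and 7.39% of all genes. Without control replicate 1, which lies on beadchip 1, they were 10 and 1, against 4.33% and 4.31% of all genes. Of the 82, 55 were above 0, against 44.5% of all genes. That count was 37 with median scaling and 45 without control replicate 1. The share of all genes above 0 was not counted under those settings, so these counts have no comparison. Of the arrays low in Ttr, ethanol replicates 1 and 3 and control replicate 1 lie on beadchip 1. Only control replicate 4 lies on beadchip 2. The beadchip comparison was not run with all of these arrays left out, so the part of that split in the lean was not tested.

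Ndufa6, an accessory subunit of the peripheral arm, was at 12.89 to 13.12 on beadchip 2 and 12.54 to 12.75 on beadchip 1, a difference of 0.31 (0.17 to 0.45, adjusted p of 0.143 in limma). Ndufb9, of the membrane arm, was at 10.63 to 10.94 on beadchip 2 and 10.28 to 10.59 on beadchip 1, and Ndufaf1 at 10.94 to 11.22 on beadchip 2 and 10.62 to 10.93 on beadchip 1. With the dimmer Ndufb10 probe these made 4 of the 113 member probes tested without overlap and higher on beadchip 2, against 0.715% of all probes. Ndufb5 differed by 0.37 (0.18 to 0.57) and Ndufaf2 by 0.33 (0.14 to 0.52), with overlapping beadchips. The gene that was lower was Atp5g3, by -0.19 (-0.35 to -0.04, adjusted p of 0.351). Beadchip is the only batch the labels give, and the scan or preparation behind it was not tested.

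**Figure D4:**
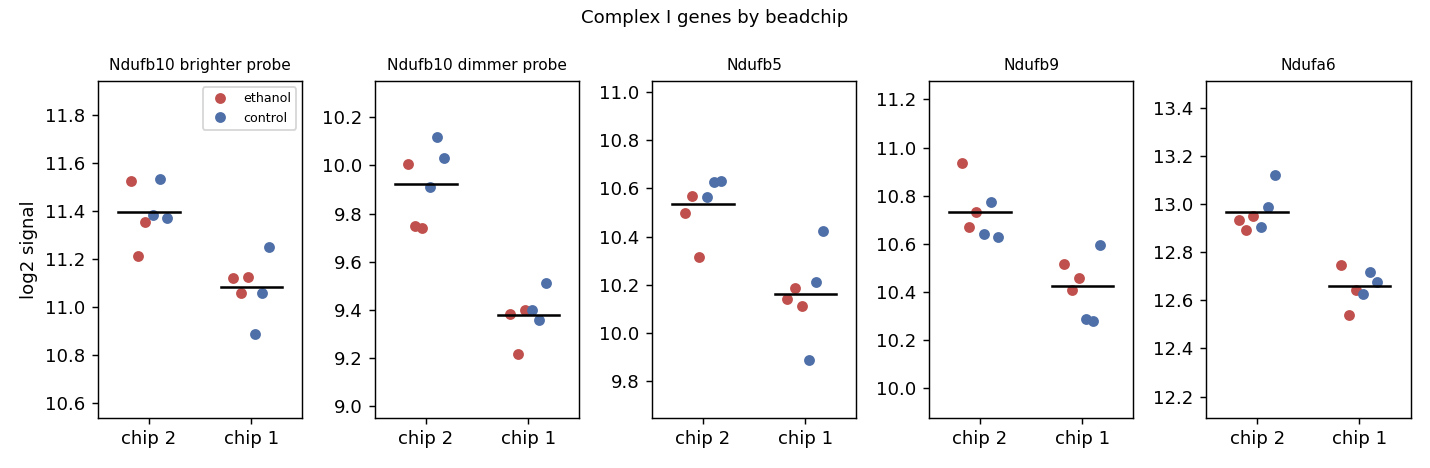
Log2 signal of the 2 Ndufb10 probes and of Ndufb5, Ndufb9 and Ndufa6 on beadchip 2 (left in each panel) and beadchip 1, ethanol and control arrays in separate colours; bars are means of 6 arrays. The dimmer Ndufb10 probe, Ndufb9 and Ndufa6 separate without overlap, and ethanol and control arrays mix within each beadchip.

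Probes of the same gene did not always move alike. Of the 82 genes, 24 had more than 1 tested probe, and their ethanol differences spread by at most 0.21 within a gene, the widest being Atp5pb, a stalk subunit of complex V with 3 tested probes from -0.13 to 0.08. Between beadchips the probes of Atp5pb spread from -0.01 to 0.55. Probe sequences were not used here, so signal from processed pseudogenes, which are frequent for these genes, cannot be told apart from that of the genes. Ndufs5-ps, a pseudogene that the symbol rule took in, was counted among the 82 and placed in no complex.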

How the data were processed

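The deposited scanner table gave, per the file headers, a bead intensity on a linear scale and a detection p-value for each probe and array, with no normalization between arrays. A second table held the authors' processed intensities, whose columns all had a median of 141.6. GenomeStudio 1.9.0 is the software named, per the submitters' processing notes; settings: not given in the sources used here. Scanner intensities were background-corrected by normexp through the detection p-values with an offset of 16, quantile normalized and converted to log2 with limma 3.58.1 (R 4.3.3, statmod 1.5.0). The offset shrinks differences of dim probes, and quantile normalization removes a shift shared by all probes. Probes detected (p-value below 0.05) on 6 or more arrays, 21263 in number, entered lmFit and eBayes, and p-values were adjusted by Benjamini-Hochberg over them. Intervals are 95% limma intervals for single genes. Of the tested probes 18064 had 1 gene in the platform annotation, 9 had several and 3190 had none. The brightest tested probe stood for a gene.

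The members, lists, tests and alternatives were chosen with earlier results of these data known, including which arrays were low in Ttr, so lists are described by counts and medians without a test. Genes named were, per complex, the 6 with the smallest ethanol p, the catalytic core and isoform sets, the 8 most variable members, undetected members, the 6 with the smallest beadchip p, and 4 per other list or fewer. Atp5pb, and Prox1, Ttr and Aqp1 of the marker lists, were named outside these rules after their values were seen. Promoter windows came from RefSeq. The fit was tested on simulated data. The number of arrays limits the precision.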

Additional observations from a re-analysis of the deposited data

Results flagged for a closer look

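In 106 sets of 6 values (each complex, the assembly factors, all members, and each named member, in either group), 7 had 1 array whose gap to the nearest other exceeded the 95% critical value of Dixon's test. Chance gives about 5% of such sets.

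Control replicate 1 was set apart in 3 of the 7. The mean log2 signal of the complex V genes was 12.08 there and 12.28 to 12.36 on the other 5 control arrays. Sdhb, the iron-sulphur subunit of complex II, was at 11.24 there and at 11.60 to 11.70 on the others. Uqcrh, the hinge protein of complex III, was at 13.72 there and at 13.98 to 14.12 on the others.

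Ethanol replicate 1 was set apart in 3, in both directions. Cox7a2 was at 9.00 there and at 9.51 to 9.67 on the other 5 ethanol arrays, and Cox7a1 at 6.96 there and at 7.66 to 8.03 on the others. Atp5k was at 8.18 there and at 6.64 to 7.07 on the others. The last was Ndufa4 on ethanol replicate 2, at 14.38, where the others spanned only 14.46 to 14.50.

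No named member had ethanol and control arrays that separated in opposite directions on the beadchips (0 genes). The share of all genes that did so was not counted, so nothing about the members is read from this.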

How the results depend on the processing

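The ethanol comparison had 0 probes past the threshold under each of 25 alternatives, with 789 to 1437 of the 21263 probes at an unadjusted p under 0.05 where that filter was kept, 862 with detection on all 12 arrays, 2087 without the filter and 704 where probes were averaged per gene, and lowest adjusted p of 0.227 to 1.00 in limma. Of 1148 values of 46 named members, 0 passed, 85 had another sign than the value reported and 4 moved by over 1 SD. Signs of uncalled differences near 0 were not counted as reversals. Of 125 medians per complex, 23 changed sign and 1 moved by over 1 SD, that of complex II within beadchip 1, at 0.17. For beadchip 2 against beadchip 1, the 6 probes called became 1 with median scaling, 26 in the authors' processed table and without background correction, 12 with an offset of 50, 1 without the detection filter and 12 with array weights, and 0 to 3 with 1 array left out. With detection on all 12 arrays there were 7. The cause of these shifts was not tested, beyond fewer arrays in the left-out fits and more probes without the filter. The interaction had 0 probes called in each alternative run.

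Replicate numbers are shared by the groups, but arrays of the same number did not deviate together in every pair: correlations over probes were 0.33, 0.11, -0.25, -0.20, 0.21 and 0.12 for numbers 1 to 6. With the replicate block, 0 probes were called (1078 at an unadjusted p under 0.05, lowest adjusted p of 0.898), and it changed no call. The arrays limit what could be seen: the members' intervals were mostly within 1.5-fold, and dim probes such as Uqcrfs1 lie near the background, where the offset pulls differences towards 0.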
